A study of Mus musculus with 15 samples.

Results

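J1 is an established line of male mouse embryonic stem cells, and unmodified J1 cells served as the control of 2 separate knockout experiments. The Taf experiment has 3 groups of 3 libraries (Taf5l knockout, Taf6l knockout and wild type), and a Myc knockout with its own wild type, again 3 libraries each, makes up the Myc experiment. The 6 wild-type libraries of the 15 in the series were chosen by their labels: 3 made for the Taf knockouts (WT-Taf) and 3 made for the Myc knockout (WT-Myc). Per the labels, all 15 were grown in medium with 15% serum and 1000 U/ml of the cytokine LIF, and all were made from total RNA by ribosomal RNA depletion and a strand-marking kit. The label is the same for all 15, and ribosomal RNA depletion keeps RNAs without long poly(A) tails. The summed share of 4 such RNA classes was nevertheless 8.36% of counts in WT-Taf and 0.0840% in WT-Myc. The selection used for the Myc-experiment libraries was not settled here, so folds for RNAs without long tails compare libraries and cannot be read as levels in the cells. Neither wild-type group carries an edit or a drug treatment. The labels do not say whether the 3 replicates of a group were separate cultures, so p-values measure the spread between libraries, which may be technical. Total estimated counts were 14935631 to 20337365 in WT-Taf and 17922864 to 23869375 in WT-Myc. Experiment and group coincide, so culture, RNA handling and sequencing batch cannot be told apart in any difference given here, and bulk RNA cannot separate fewer cells of a type from less RNA per cell.

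Most messenger RNAs end in a long poly(A) tail, and a library can be made either by capturing that tail or by removing ribosomal RNA from total RNA. Several abundant RNAs have no long tail: replication-dependent histone mRNAs, which end in a short stem-loop in its place, the small nuclear and nucleolar RNAs, the RNAs transcribed by RNA polymerase III, and the ribosomal and transfer RNAs of mitochondria. A depleted library keeps these RNAs and a tail-selected library loses most of them. Mouse embryonic stem cells in serum and LIF express the pluripotency factors Pou5f1, Sox2 and Nanog together with variable levels of early differentiation genes.

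The ends of some of these RNAs are printed here beside ends that carry a polyadenylation signal. The first 3 sequences are whole RNAs that lack a poly(A) tail, with their last 10 bases in capitals: Rmrp, the RNA of the RNase MRP complex (chr4:43492788-43493058, minus strand of GRCm38), Rny3, a small RNA bound by the Ro protein (chr6:47781624-47781725, plus strand), and Rnu2-10, a U2 spliceosomal RNA (chr11:101658238-101658428, plus strand).
Rmrp: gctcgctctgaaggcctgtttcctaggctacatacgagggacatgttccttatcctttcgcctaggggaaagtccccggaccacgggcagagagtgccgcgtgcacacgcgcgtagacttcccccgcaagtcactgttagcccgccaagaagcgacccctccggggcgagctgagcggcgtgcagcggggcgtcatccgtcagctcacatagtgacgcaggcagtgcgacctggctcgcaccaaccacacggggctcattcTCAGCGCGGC
Rny3: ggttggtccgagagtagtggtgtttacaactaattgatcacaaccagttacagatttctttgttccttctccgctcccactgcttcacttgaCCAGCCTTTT
Rnu2-10: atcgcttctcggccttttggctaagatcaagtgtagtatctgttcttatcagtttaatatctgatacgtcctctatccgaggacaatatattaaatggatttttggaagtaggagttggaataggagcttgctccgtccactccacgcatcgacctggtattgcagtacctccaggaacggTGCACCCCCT
The next 3 are the stem-loops at the 3′ ends of replication-dependent histone mRNAs from the cluster on chromosome 13, with the 6-base stem in capitals around a 4-base loop.
Hist1h2ab: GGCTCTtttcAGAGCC
Hist1h3c: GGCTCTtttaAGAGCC
Hist1h4m: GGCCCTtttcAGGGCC
The last 3 are ends of transcripts that carry the polyadenylation signal AATAAA, in capitals, from a replication-dependent histone gene (Hist2h2be) and from 2 replacement histone genes that are expressed outside S phase (H2afz and H3f3b).
Hist2h2be: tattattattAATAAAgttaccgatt
H2afz: ggataagctcAATAAAggtcatatcc
H3f3b: cttacaAATAAActagtaagtt
All were read from the GENCODE M21 transcripts, a different build from the one named for the deposited files, and were matched by gene identifier.

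The composition of the libraries differed by class of RNA. Small structural RNAs (nuclear, nucleolar, polymerase III and related RNAs) held 1.40% ± 0.120 of all counts in WT-Taf and 0.00855% ± 0.000591 in WT-Myc (SD, n = 3), a 164-fold difference. Mitochondrial ribosomal RNA held 5.46% ± 0.247 against 0.0537% ± 0.00842, and replication-dependent histones 1.48% ± 0.0417 against 0.0189% ± 0.00139. Mitochondrial transfer RNA held 0.0138% against 0.00282%. These 4 classes, none of which ends in a long poly(A) tail, summed to 8.36% ± 0.0914 of WT-Taf counts and 0.0840% ± 0.00846 of WT-Myc counts. Long non-coding RNAs held 0.610% against 0.397%, and microRNA entries 1.32% against 0.0299%. Nuclear protein-coding genes other than those histones held 77.2% ± 0.283 in WT-Taf and 91.8% ± 0.339 in WT-Myc, and mitochondrial mRNA 1.33% ± 0.0534 against 2.31% ± 0.404. For each of these classes the WT-Taf and WT-Myc libraries did not overlap, and the exact two-sided permutation test gave p = 0.1, the smallest that 3 libraries against 3 allow. For the 4 classes the knockout libraries fell with the wild type of their own experiment: they summed to 8.19% of counts in Taf5l-KO and 7.19% in Taf6l-KO, against 0.128% in Myc-KO. Mitochondrial mRNA did not follow this division. It held 1.201%, 1.2% and 2.415% in the Myc-KO libraries, beside 1.29% to 1.392% in WT-Taf.

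**Figure D1:**
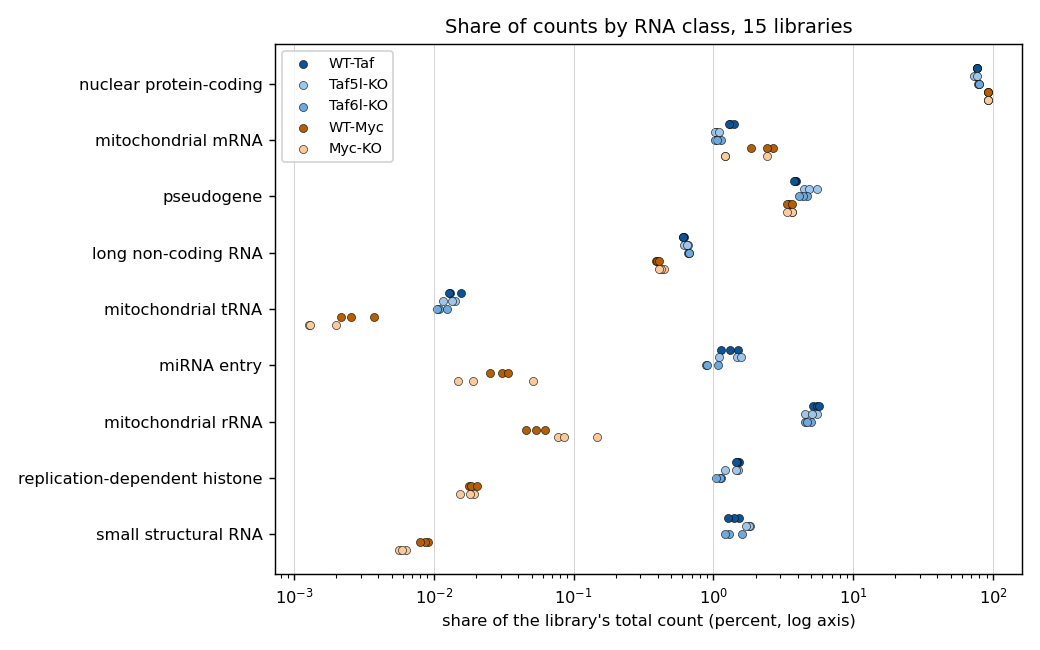
Share of all counts in each RNA class shown (log axis, percent), 1 point per library for all 15 libraries, coloured by group. Small structural RNA, mitochondrial rRNA and replication-dependent histones lie far higher in the 9 Taf-experiment libraries than in the 6 Myc-experiment libraries, and nuclear protein-coding RNA lies near 77.2% and 91.8% in the wild types.

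Counts per gene were compared with edgeR's quasi-likelihood test and Benjamini-Hochberg adjustment over 14977 genes, calling a gene at an adjusted p under 0.05. All log2 fold changes are WT-Myc minus WT-Taf, and levels are CPM, counts relative to a fixed library total, scaled with edgeR's normalization factors. The replicates were tight, with a biological coefficient of variation of 5.42%, and 69.1% of all genes tested were called (5148 higher and 5194 lower in WT-Myc). A call was therefore common, and the size of a change is given beside it: 6.7% of all genes were called at least 2-fold higher in WT-Myc and 12.1% at least 2-fold lower. Scaling by library totals in place of edgeR's trimmed mean of M-values raised the median of all genes by 0.13 on the log2 scale and gave 61.2% of called genes as higher, against 49.8% in the main analysis.

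All 67 replication-dependent histone genes tested were called at least 2-fold lower in WT-Myc, with a median log2 fold change of -8.84 beside -0.01 over all genes tested. Many of them, such as Hist1h2bj and Hist1h1e, passed the filter on low counts only through WT-Taf, and 3 had 3 or fewer counts over WT-Myc. The direction of such genes was fixed by the filter, so the count of 67 is not independent of it. These genes encode the core and linker histones that package newly replicated DNA. Hist1h4k, a histone H4 gene, measured 836, 829 and 773 CPM in the WT-Taf libraries and 1.35, 1.64 and 1.12 CPM in WT-Myc (log2 fold change -9.21 ± 0.083 SE, edgeR adjusted p = 6.59e-15). Hist1h1a, a linker histone H1 gene, measured 740, 665 and 662 CPM against 0.594, 0.476 and 0.638 CPM (log2 fold change -10.22). Every WT-Taf library thus held these mRNAs at a high level where no WT-Myc library reached 2 CPM. Hist1h2ba, an H2B gene, had 1725 counts over the WT-Taf libraries and none in WT-Myc, at least 744-fold lower against a floor of 3 counts over the group. Hist1h2bj had 10855 counts against 3, a ratio of 4680 with a counting interval of 1600 to 22700.

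The ends of these genes were searched for a stem-loop and for AATAAA. A canonical histone stem-loop was found within the last 150 transcript bases of 20 of the 67 genes, searching the sense strand only, and their log2 fold changes ran from -12.00 to -7.73. The commonest form, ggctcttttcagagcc, occurred in 10 genes, and the form printed for Hist1h4m in 4. Another 11 genes had AATAAA within the last 50 bases and no stem-loop, with a median of -6.18 and a range from -10.08 to -1.45. The 24 genes with neither had a median of -9.18. The 12 with no M21 transcript, whose ends were not searched, had a median of -8.53 and a range from -9.98 to -1.16. A missing match says only that these letters are not in the window. Over 20085 protein-coding genes, 0.0199% had the stem-loop and 67.8% had AATAAA in the same windows.

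Hist2h2be, whose transcript ends after AATAAA, measured 1.23, 1.13 and 1.12 CPM in WT-Taf and 0.486, 0.389 and 0.399 CPM in WT-Myc (log2 fold change -1.46, edgeR adjusted p = 0.000499). Hist1h2ao measured 162, 154 and 154 CPM against 63.7, 68.7 and 76.8 CPM (log2 fold change -1.16), the smallest fall in the class, and has no M21 transcript. Its counts are identical to those of its near-copy Hist1h2ap in every library, so neither gene's own level is certain. The 11 replacement histones had a median of -0.39, with 3 called higher and 7 lower, and H2afz was the single member past 2-fold. In the same end windows, AATAAA was found in 8 of the 11 and a stem-loop in 0. Whether each of them, H2afx included, is made only from polyadenylated mRNA was not tested. H3f3b, a histone H3.3 gene, measured 504, 497 and 504 CPM in WT-Taf and 397, 372 and 379 CPM in WT-Myc (log2 fold change -0.39 ± 0.036). H2afz, the gene of histone H2A.Z, measured 262, 254 and 261 CPM against 50.6, 42.1 and 83.4 CPM (log2 fold change -2.13 ± 0.18). H2afx was lower by less (log2 fold change -0.67), and the variants H2afy and H2afv were higher (0.44 and 0.53).

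Of 189 small structural RNAs tested, 183 were called at least 2-fold lower in WT-Myc, with a median log2 fold change of -5.48, or -5.14 with genes that had no count in WT-Myc set to their bound. The class has 3366 rows, and the others did not pass the filter on low counts. Among the 189, 77 had 3 or fewer counts over WT-Myc and passed the filter only through WT-Taf. So did members with more counts, such as Rpph1 and Rnu2-10, whose full number was not counted. The direction of all such members was fixed by the filter, and the count of 183 is not independent of it. Rn7sk, the 7SK RNA that holds the transcription elongation factor P-TEFb inactive, measured 6103, 5936 and 5329 CPM in WT-Taf and 29.8, 20.4 and 16.2 CPM in WT-Myc (log2 fold change -8.05 ± 0.18, edgeR adjusted p = 1.51e-11). Rmrp measured 3587, 3104 and 2953 CPM against 1.35, 1.21 and 1.12 CPM (log2 fold change -11.36 ± 0.11). Rpph1, the RNA of RNase P, had 159364 counts over the WT-Taf libraries and 14 over WT-Myc. These RNAs are products of RNA polymerase III and were among the most abundant of the class in WT-Taf. Terc, the telomerase RNA, had 3996 counts against 3, a ratio of 1720 with a counting interval of 589 to 8360. Rny3 had 1453 counts against 3, a ratio of 627 (214 to 3040), and Rny1 had 755 against 1, a ratio of 977 (175 to 38600).

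By type, 15 of 16 spliceosomal and related snRNAs, 108 of 109 snoRNAs and 10 of 12 scaRNAs were called at least 2-fold lower, with medians of -7.26, -4.85 and -5.57. Of these tested RNAs, 7 snRNAs, 37 snoRNAs and 6 scaRNAs had 3 or fewer counts over WT-Myc and passed the filter only through WT-Taf. So did members with more counts, Rnu2-10 among them, and their number was not counted. The U2 gene Rnu2-10 averaged 51.6 CPM in WT-Taf and 0.315 CPM in WT-Myc (log2 fold change -7.26). Several U1 entries hold equal counts and cannot be told apart. The single member called higher was Rprl2, an RNase P-like RNA, named here because it was the only one: it had no count in any WT-Taf library and 38, 37 and 21 counts in WT-Myc. It passed the filter only through WT-Myc. Rprl3, another RNase P-like entry, had 453 counts over WT-Taf and 0 over WT-Myc. How reads were divided between such entries was not tested. In the knockouts the class had a median of -6.68 between Myc-KO and the mean of the Taf knockouts.

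**Figure D2:**
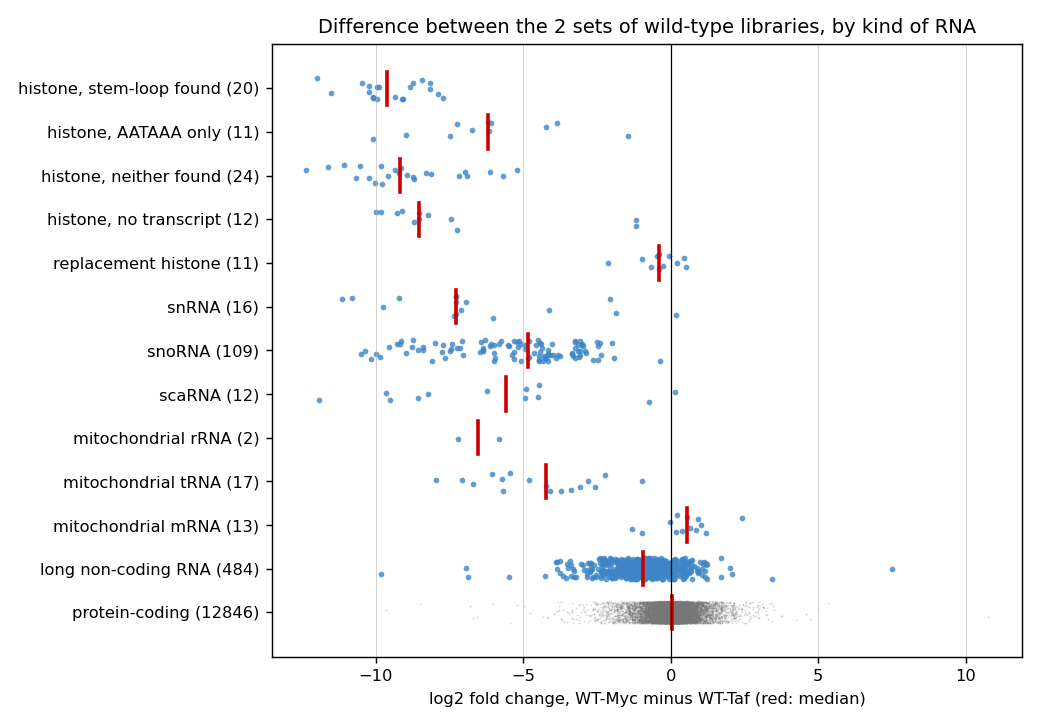
Log2 fold change WT-Myc minus WT-Taf for tested genes by kind of RNA (1 point per gene, bar at the median of each row). Replication-dependent histones are split by 3′ end, and of the small structural RNAs only snRNAs, snoRNAs and scaRNAs are drawn. Pseudogenes, microRNA entries and entries absent from M21 are not drawn. The bars of snRNAs, snoRNAs and mitochondrial rRNA stand at -7.26, -4.85 and -6.51, that of nuclear protein-coding genes at 0.05.

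The mitochondrial genome is transcribed as long precursors from which ribosomal, transfer and messenger RNAs are cut, and its products did not move together. The 16S ribosomal RNA mt-Rnr2 measured 43610, 46090 and 47250 CPM in WT-Taf and 353, 311 and 263 CPM in WT-Myc (log2 fold change -7.21 ± 0.11, edgeR adjusted p = 4.25e-13). The 12S RNA mt-Rnr1 fell by 5.82 on the log2 scale. All 17 transfer RNAs tested were called lower, 16 of them at least 2-fold, with a median of -4.22. Among the 17, 5 had 3 or fewer counts over WT-Myc and passed the filter on low counts only through WT-Taf. Whether members with more counts also did was not counted. The largest fall that rests on more than a few counts was mt-Tc (-7.06), and mt-Ts1 had the smallest (-0.96). Mitochondrial ribosomal RNAs carry only short tails, and the transfer RNAs none.

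Most mitochondrial mRNAs are polyadenylated, and mt-Nd6 is known as an exception. Among the 13, 8 were called higher in WT-Myc and 2 lower, with a median of 0.57. In the knockout libraries the median was 0.325, with 6 called higher and 0 lower. The respiratory chain subunit mRNA mt-Co1 measured 4446, 4498 and 4376 CPM in WT-Taf and 9633, 8665 and 6955 CPM in WT-Myc (log2 fold change 0.92 ± 0.09, edgeR adjusted p = 4.09e-06). The WT-Myc libraries spread more widely than the WT-Taf libraries, with the lowest value in replicate 3, and the groups did not overlap. mt-Cytb and mt-Nd4 were higher by 1.02 and 1.21. mt-Nd6, the subunit encoded on the opposite strand, measured 52.1, 64.6 and 51.9 CPM against 360, 313 and 223 CPM, the largest rise of the 13 (log2 fold change 2.40 ± 0.15). No source used here says whether reads were counted by strand, so reads of its antisense transcript cannot be told apart. The 2 lower mRNAs were mt-Atp8 (log2 fold change -1.31), which overlaps mt-Atp6, and mt-Nd3 (-0.96).

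Long non-coding RNAs were lower in WT-Myc more often than not: of 484 tested, 232 were called at least 2-fold lower and 16 at least 2-fold higher, with a median of -0.94. Antisense RNAs had a median of -1.23 over 182 genes and intergenic RNAs of -0.76 over 142. Malat1, a nuclear RNA whose mature end is a triple helix in place of a tail, measured 1738, 1799 and 1771 CPM in WT-Taf and 211, 296 and 313 CPM in WT-Myc (log2 fold change -2.69 ± 0.12, edgeR adjusted p = 5.35e-09). Every WT-Myc library thus lay several-fold below every WT-Taf library. Neat1, the scaffold of paraspeckles, fell by 1.17 on the log2 scale, and Nespas, the antisense RNA of the Gnas imprinted locus, by 2.70. Rian and Mirg, non-coding RNAs of the imprinted Dlk1 locus that host snoRNAs and microRNAs, had log2 fold changes of -1.36 and -1.69. In a list of 13 nuclear long non-coding RNAs, 9 were called lower and none higher, with a median of -1.32.

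All 7 snoRNA host genes tested, whose introns carry snoRNAs and whose spliced RNAs are exported and short-lived, were called lower, with a median of -1.14. Snhg1 measured 71.0, 72.1 and 70.8 CPM in WT-Taf and 35.8, 33.4 and 30.8 CPM in WT-Myc (log2 fold change -1.10 ± 0.056). Snhg7 had the largest fall of the 7 (-2.03) and Gas5 the smallest (-0.56). Gas5 and Snhg3 had the opposite direction in the deposited FPKM values: Gas5 differed by 0.69 in a limma-trend analysis of them, and Snhg3 by 0.97, from 244 ± 22.5 FPKM in WT-Taf to 486 ± 90.8 FPKM in WT-Myc (SD, n = 3) beside a log2 fold change of -1.14 from counts. Counts per gene do not separate spliced from unspliced RNA, which was not analysed here.

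Entries outside the usual classes followed the same 2 directions. Of 697 identifiers with no entry in GENCODE M21, 320 were called at least 2-fold lower and 30 at least 2-fold higher (median -0.84), and these identifiers held 7.31% of WT-Taf counts and 1.90% of WT-Myc counts. The most abundant, AC157822.1, averaged 19890 CPM in WT-Taf and 17.8 CPM in WT-Myc, and AY036118 averaged 14760 against 46.2 CPM. Of 24 microRNA entries that passed the filter on low counts, out of 1151 rows, 19 were at least 2-fold lower. The most abundant, mmu-mir-689-2, averaged 4578 CPM against 81.4 CPM, and the entry mmu-mir-2134-2 has the same means, so the value cannot be given to a single locus or to a mature microRNA. Of 637 pseudogenes, 102 were at least 2-fold higher and 139 at least 2-fold lower. The most abundant pseudogene, Gm12895, averaged 6358 CPM against 23.1 CPM, while Gm9531, another pseudogene entry, measured 1.29, 2.06 and 1.75 CPM in WT-Taf and 239, 263 and 267 CPM in WT-Myc. Rps27, the gene of a small-subunit ribosomal protein, had no count in any WT-Myc library, and its near-identical copy Gm9846 holds reads in both groups. Such entries share sequence with a parent gene, so how reads were divided between copies cannot be told apart from a change in expression.

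The nuclear protein-coding genes moved about evenly in both directions. Of 12846 tested, 37.3% were called higher and 30.7% lower, and 6.62% (851 genes) were called at least 2-fold higher and 6.5% (835 genes) at least 2-fold lower, around a median of 0.05. The counts called in each gene list below are to be read beside these shares. With library totals the split was 1118 higher against 682 lower, a share of higher genes of 62.1% beside 50.5%. Genes in the lowest sixth by GC content had a median of -0.26, with 12% at least 2-fold lower and 2.99% higher, and the Spearman correlation of the log2 fold change with GC over 12831 genes was 0.21. Transcript length showed a correlation of -0.04. The 253 single-exon genes had a median of -0.25 and 16.6% of them were at least 2-fold lower. Medians by chromosome ran from -0.12 on chromosome 13 to 0.16 on chromosome 7, and the 4 genes of chromosome Y had a median of -1.06. These properties move with the difference between groups, and their part in the gene programs was not tested.

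Both groups carried the markers of embryonic stem cells. Pou5f1, the core pluripotency factor also known as Oct4, measured 959, 941 and 947 CPM in WT-Taf and 1297, 1265 and 1393 CPM in WT-Myc (log2 fold change 0.47 ± 0.041). Nanog and Sox2 were higher by 0.49 and 0.41. Esrrb, a nuclear receptor of the naive state, differed by 0.12, a call lost when scaling used protein-coding genes alone, and Klf4 measured 284, 288 and 285 CPM against 273, 281 and 277 CPM, which did not pass the test (log2 fold change -0.05, edgeR adjusted p = 0.233). Of 34 naive pluripotency genes, 18 were called higher and 12 lower, 3 and 1 of them by at least 2-fold. The homeobox gene Gbx2 was the 1 lower past 2-fold: it measured 124, 126 and 119 CPM in WT-Taf and 40.7, 42.4 and 42.0 CPM in WT-Myc (log2 fold change -1.56 ± 0.042). Pecam1, a surface protein of naive cells, was higher by 1.29 and Zfp296 by 1.11. Tet1, which oxidizes methylated cytosine, measured 387, 404 and 399 CPM against 734, 743 and 707 CPM. The naive factors Tbx3 and Nr0b1 were lower by less than 2-fold (-0.46 and -0.64).

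Genes of the formative and primed states, which follow naive pluripotency, were more often higher in WT-Myc: 9 of 18 tested were called higher, 6 by at least 2-fold, and 4 were called lower, none by 2-fold. Nodal, a TGF-beta family ligand of the early epiblast, measured 21.2, 22.0 and 23.9 CPM in WT-Taf and 118, 118 and 123 CPM in WT-Myc (log2 fold change 2.42 ± 0.052, edgeR adjusted p = 1.28e-11). Its inhibitors and targets Lefty1 and Lefty2 were higher by 2.00 and 1.75, and the adhesion molecule Cdh2 by 1.79. The direction was not shared by every marker of the list, since Foxd3, a pluripotency-exit factor, was lower (-0.86). Pou3f1, a marker of the primed state, measured 0.280, 6.27 and 0.490 CPM in WT-Taf and 6.10, 7.05 and 7.41 CPM in WT-Myc: WT-Taf replicate 2 lay near the WT-Myc libraries and the other 2 near 0, and the gene was not called (log2 fold change 1.44, edgeR adjusted p = 0.05). Without WT-Taf replicate 2 it was called, at 4.18. For the list, the median was 0.70 in the wild types and 0.07 in the knockout libraries.

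The FGF and ERK list includes feedback genes such as Spry4 and Dusp6, which ERK signalling induces and which restrain it. Some of the tightest falls were in this list. Spry4 measured 316, 306 and 309 CPM in WT-Taf and 107, 106 and 105 CPM in WT-Myc (log2 fold change -1.55 ± 0.035, edgeR adjusted p = 1.95e-11). Dusp6, an ERK phosphatase, fell by 1.38 and the transcription factor Etv4 by 1.11. Lif, the gene of the cytokine itself and a member of the same list, went the other way, from 2.52, 2.26 and 2.03 CPM to 10.8, 12.8 and 12.7 CPM (log2 fold change 2.40). Of the 17 members, 9 were called lower and 6 higher, so the list as a whole was mixed (median -0.13, and 0.005 with library totals). In the BMP list of 13 genes, Id2, an inhibitor of differentiation factors, was higher by 2.28 and the inhibitory Smad7 lower (-1.25).

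Targets of p53, the damage-responsive transcription factor, were higher in WT-Myc: 23 of 28 were called higher, 13 of them at least 2-fold, and 2 were called lower, with a median of 0.92 beside 0.05 for all protein-coding genes. Plk2, a kinase induced by p53, measured 14.8, 15.4 and 15.9 CPM in WT-Taf and 106, 105 and 108 CPM in WT-Myc (log2 fold change 2.79 ± 0.048, edgeR adjusted p = 1.48e-12). Perp, an apoptosis-associated membrane protein, measured 12.6, 11.8 and 10.98 CPM against 71.0, 65.2 and 66.6 CPM (log2 fold change 2.51 ± 0.064). In both genes the replicates of a group lay within a few CPM of each other, far from the other group. The cell cycle inhibitor Cdkn1a was higher by 1.72, the pro-apoptotic Bbc3 by 1.65, the antiproliferative Btg2 by 2.06, and Mdm2, the ubiquitin ligase that degrades p53, by 1.29. Ccng1 rose from 174, 174 and 172 CPM to 536, 512 and 458 CPM. The 2 called lower, Sesn1 and Rrm2b, differed by -0.31 and -0.33. In the knockout libraries the list had a median of 0.33, and Perp differed by 0.22.

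Glycolysis and hypoxia-response genes were also higher in WT-Myc. Of 23 glycolysis genes, 16 were called higher, 9 by at least 2-fold, and 4 lower (median 0.75). Slc16a3, the lactate exporter MCT4, measured 15.3, 13.2 and 14.1 CPM in WT-Taf and 85.7, 90.4 and 95.2 CPM in WT-Myc (log2 fold change 2.67 ± 0.065, edgeR adjusted p = 4.24e-11). Pfkl, the liver-type subunit of phosphofructokinase, measured 91.3, 86.7 and 95.8 CPM against 304, 311 and 331 CPM (log2 fold change 1.79). Tpi1, Ldha, Gapdh and the glucose transporter Slc2a1 were higher by 1.84, 1.21, 1.18 and 1.14. Pfkfb3, which makes the activator of phosphofructokinase, was higher by 2.50. The muscle enolase Eno3 was the 1 lower by at least 2-fold (-1.14). The list's median was 0.77 in the knockout libraries, close to that in the wild types.

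Of 23 hypoxia-response genes, 15 were called higher, 11 by at least 2-fold, and 2 lower (median 0.59). Several of these encode glycolytic enzymes and stand in both lists. Ddit4, an inhibitor of the growth kinase mTORC1, measured 6.39, 4.78 and 6.79 CPM in WT-Taf and 54.5, 53.2 and 57.7 CPM in WT-Myc (log2 fold change 3.22 ± 0.095). Bnip3, a mitophagy receptor, measured 10.9, 10.2 and 11.1 CPM against 53.7, 48.6 and 49.9 CPM (log2 fold change 2.24). P4ha1, a collagen prolyl hydroxylase, was higher by 2.18. In the knockout libraries the median was 0.25, with 11 called higher and 6 lower. Vegfa, the angiogenic ligand of the same list, differed by -0.14 and was not called.

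Targets of ATF4, the factor that induces amino acid synthesis genes under stress, went the other way: 27 of 35 were called lower, 7 by at least 2-fold, and 5 higher (median -0.46). Psat1, an enzyme of serine synthesis, measured 428, 414 and 407 CPM in WT-Taf and 144, 139 and 139 CPM in WT-Myc (log2 fold change -1.57 ± 0.037, edgeR adjusted p = 2.91e-11). Mthfd2, of mitochondrial folate metabolism, fell by 1.18 and the asparagine synthetase Asns by 0.78. The glutathione-degrading Chac1 and the stress protein Nupr1 had log2 fold changes of -2.25 and -2.30. Slc7a11, the cystine transporter, was the 1 member at least 2-fold higher (1.16). Atf4 itself differed by -0.14, a call lost with library totals and without WT-Myc replicate 1. With library totals, 4 members were at least 2-fold lower in place of 7.

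Immediate-early, lysosomal and housekeeping genes had medians nearer to 0. Of 19 immediate-early genes, 13 were called higher, 4 by at least 2-fold, and 1 lower (median 0.41). Jun, a subunit of the AP-1 factor, measured 1.79, 2.11 and 1.89 CPM in WT-Taf and 5.40, 5.92 and 6.34 CPM in WT-Myc (log2 fold change 1.61). Of 29 lysosomal genes, 20 were called higher and 2 lower (median 0.30). The protease gene Ctsd measured 142, 142 and 148 CPM against 333, 333 and 348 CPM (log2 fold change 1.23), and Psap, which encodes the saposin precursor, was higher by 1.11. Of 19 interferon-response genes, 7 were called higher and 7 lower, near the 37.3% and 30.7% of all nuclear protein-coding genes. By at least 2-fold, 3 were higher and 2 lower, larger shares than the 6.62% and 6.5% of those genes. The peptide transporter Tap1 was higher by 2.29 and Ifitm1, also a stem cell surface protein, rose from 46.5, 49.8 and 49.0 CPM to 161, 154 and 169 CPM. Cholesterol synthesis genes (16 of 22 called higher and 1 lower, median 0.23) and nuclear genes of oxidative phosphorylation (31 of 50 higher and 11 lower, median 0.19) had few members past 2-fold, 0 and 1. The 80 cytosolic ribosomal protein genes had a median of 0.02, with 34 called higher and 27 lower, and the sign of this median changed when scaling used protein-coding genes alone (-0.02).

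**Figure D3:**
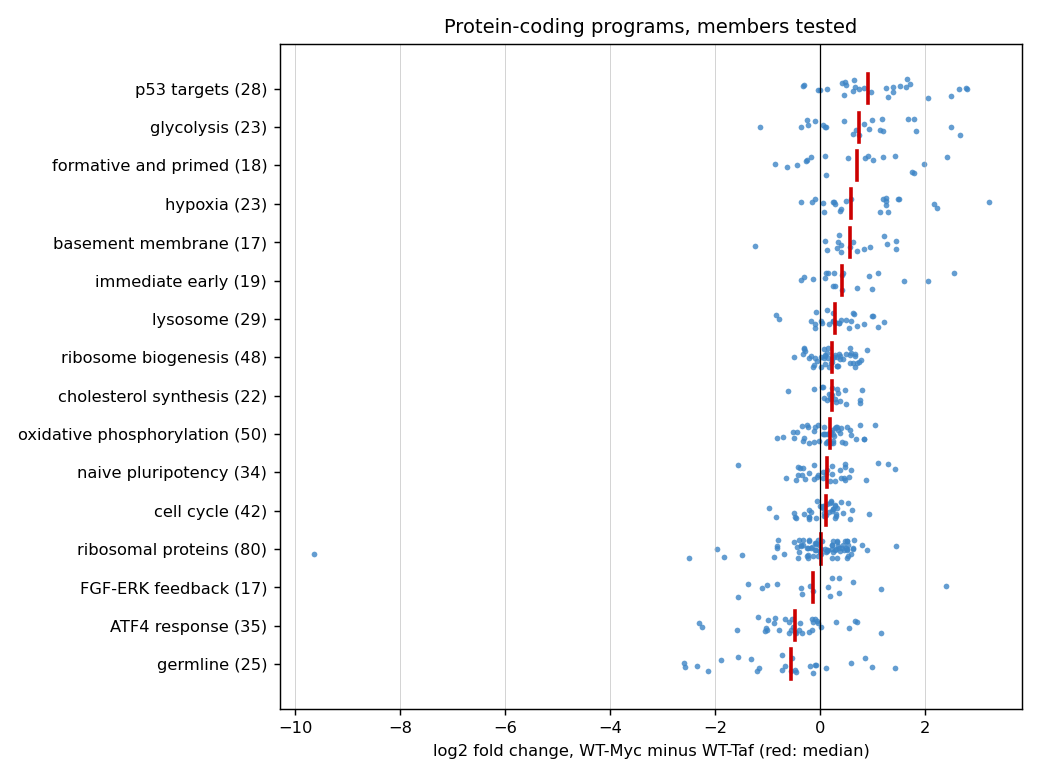
Log2 fold change WT-Myc minus WT-Taf for the tested members of each gene list (1 point per gene, bar at the list median). The medians of p53 targets (0.92), glycolysis (0.75) and formative and primed genes (0.70) lie above 0, those of ATF4 targets (-0.46) and germline genes (-0.55) below. The ribosomal protein gene far to the left is Rps27, which had no count in WT-Myc.

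Germline genes were mostly lower in WT-Myc: of 25 tested, 15 were called lower, 9 by at least 2-fold, and 3 higher (median -0.55). Sohlh2, a transcription factor of germ cell differentiation, measured 46.4, 45.8 and 47.6 CPM in WT-Taf and 9.94, 8.43 and 9.36 CPM in WT-Myc (log2 fold change -2.34 ± 0.067). The meiosis genes Tex11, Sycp1 and Stag3 had log2 fold changes of -2.60, -2.13 and -1.55, and the RNA-binding protein gene Dazl of -1.21. Hormad2, another meiosis gene, was higher by 1.00, on the edge of the 2-fold limit.

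Imprinted genes did not share a direction, with 14 of 35 called higher and 10 lower, near the 37.3% and 30.7% of all nuclear protein-coding genes. By at least 2-fold, 7 were higher and 4 lower, larger shares than the 6.62% and 6.5% of all nuclear protein-coding genes. Rtl1, a retrotransposon-derived gene of the Dlk1 locus, measured 15.6, 16.3 and 15.2 CPM in WT-Taf and 0.756, 1.64 and 1.16 CPM in WT-Myc (log2 fold change -3.69 ± 0.17). It overlaps an antisense microRNA host transcript, so the strand of these counts cannot be told apart. Peg10 measured 197, 199 and 204 CPM against 768, 791 and 735 CPM (log2 fold change 1.93 ± 0.04), and its neighbour Sgce was higher by 2.10. Peg3 was higher by 1.53 and Grb10 lower (-0.87).

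Genes of the extracellular matrix were higher in WT-Myc. Of 17 basement membrane and matrix genes, 16 were called higher, 4 by at least 2-fold, with a median of 0.58. Sparc, a secreted matrix protein, measured 199, 200 and 196 CPM in WT-Taf and 474, 477 and 494 CPM in WT-Myc (log2 fold change 1.28 ± 0.035). Col4a1, a basement membrane collagen, and the proteoglycan Hspg2 were higher by 1.46 and 1.45. Serpinh1, a collagen chaperone, was the 1 lower member (-1.23).

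Markers of fibroblasts, the cells used as feeder layers, were mixed in level. In that list 11 of 15 tested members were called higher and 1 lower (median 0.91), led by Thbs1 (log2 fold change 2.40) and Vim (1.07). Dcn and Lum, which define fibroblasts, had no count in any of the 6 libraries, and Postn, Lox and Acta2 had at most 2 counts in each. Col1a1, the main fibrillar collagen of fibroblasts, measured 1.18, 0.874 and 1.61 CPM in WT-Taf and 1.95, 1.17 and 1.47 CPM in WT-Myc, which did not differ by the test (edgeR adjusted p = 0.301). Of markers of other lineages, 9 of 15 endoderm genes tested were called higher and 1 lower, and 5 of 9 neuroectoderm genes higher and 1 lower. Mesoderm genes had 3 of 9 higher and 3 lower (median -0.12), and trophectoderm genes had 5 of 11 higher and 4 lower. Over all nuclear protein-coding genes 37.3% were called higher and 30.7% lower, near the shares of the mesoderm list. In the mesoderm list 2 were at least 2-fold higher and 2 at least 2-fold lower, beside 6.62% and 6.5% of all nuclear protein-coding genes. Mean levels in these lists were not compared with differentiated cells.

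The genes targeted in the sister experiments differed little between the wild types. Myc measured 73.0, 67.8 and 74.3 CPM in WT-Taf and 61.1, 64.4 and 63.2 CPM in WT-Myc (log2 fold change -0.19 ± 0.047, edgeR adjusted p = 0.00442), a call that was lost with library totals. Mycn was higher by 0.64, and Taf5l and Taf6l, subunits of the SAGA and PCAF coactivators, by 0.20 each, Taf6l without a call when WT-Taf replicate 3 was left out. In the knockout libraries, Taf5l averaged 43.6 CPM in its own knockout, Taf6l 6.77 CPM in its own, and Myc 28.4 CPM in Myc-KO. These libraries were scaled separately from the wild types, so the 2 sets of CPM are not on a common scale. Of 45 Myc target genes, 23 were called higher and 14 lower (median 0.13), and of 48 ribosome biogenesis genes, 32 were called higher and 8 lower, none by 2-fold (median 0.23). Pes1 and Ddx21, nucleolar proteins of ribosome assembly, were higher by 0.79 and 0.74.

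Proliferation genes and the factors that process RNA ends moved by less than 2-fold, with a single exception among the genes listed. Of 42 cell cycle and replication genes, 22 were called higher and 11 lower, and none by 2-fold (median 0.12). Mki67 was higher by 0.94 and the mitotic cyclin Ccnb1 lower (-0.49). Among 12 histone mRNA processing factors, 5 were called higher and 2 lower, none by 2-fold, and Npat, the activator of histone gene transcription, had a log2 fold change of -0.54. Among 20 cleavage and polyadenylation factors, 10 were called higher and 4 lower, with Nudt21 the 1 past 2-fold (-1.28) and the scaffold Sympk higher by 0.57.

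Among protein-coding genes that averaged 100 counts or more over the libraries, with groups that did not overlap and names that do not look like clones, the largest rises were in Cyyr1 (log2 fold change 3.52), the protease inhibitor Serpine2 (3.43), the homeobox gene Nkx2-9 (3.26), Ddit4, Rtkn (2.99), Ano3 (2.95), Tmsb10 (2.85), the p53 relative Trp73 (2.80), Plk2 and Foxi3 (2.71). Tmsb10, which binds actin monomers, measured 63.7, 68.1 and 67.5 CPM in WT-Taf and 476, 445 and 517 CPM in WT-Myc. It was the most abundant of the 10, while Cyyr1 rose from 0.616, 1.28 and 1.40 CPM to 13.5, 12.1 and 12.1 CPM. Under the same limits the largest falls were in Tbata (-6.58), the circadian repressor Bhlhe41 (-3.82), Prr15 (-3.72), Rtl1, Slitrk2 (-3.35), Gas7 (-3.20), Rnf157 (-2.84), Cd84 (-2.52), Rps13 (-2.50, with near-identical copies) and Bmp2k (-2.44). Tbata measured 29.4, 29.4 and 28.6 CPM against 0.270, 0.173 and 0.438 CPM. Prr15 spread widely within WT-Taf, at 27.3, 17.1 and 11.5 CPM, and measured 1.35, 1.51 and 1.40 CPM in WT-Myc.

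**Figure D4:**
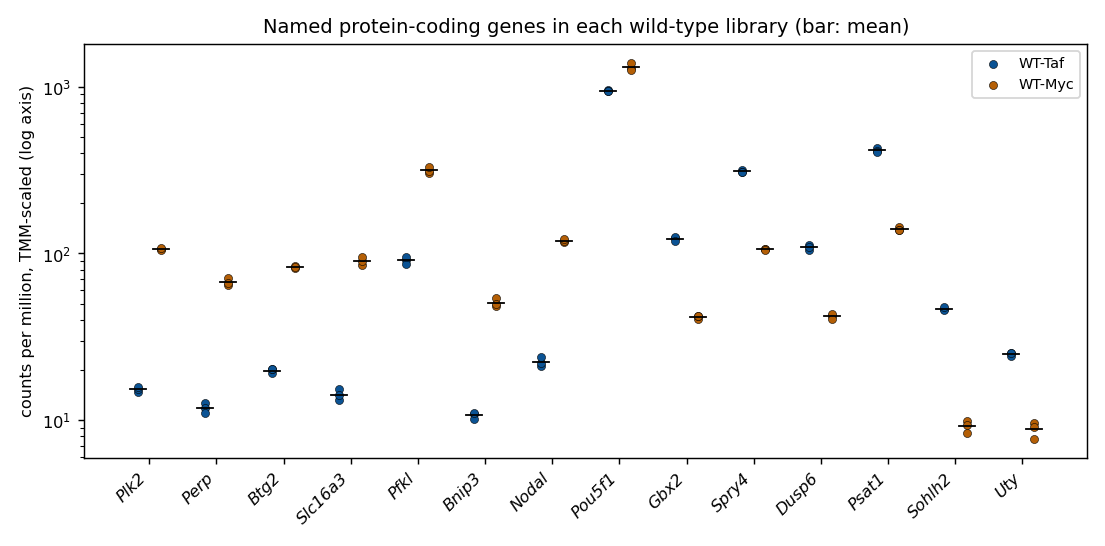
CPM in each of the 6 wild-type libraries (log axis, 1 point per library, bar at the group mean) for 14 named protein-coding genes. The 3 WT-Myc points and the 3 WT-Taf points do not overlap in any gene shown, from Plk2 (14.8 to 15.9 CPM in WT-Taf against 105 to 108 CPM in WT-Myc) to Pou5f1 (941 to 959 CPM against 1265 to 1393 CPM). Many of these genes were named for a small p in this same comparison, so the lack of overlap follows in part from their choice.

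All 3 Y-linked genes tested from the list were lower in WT-Myc. Their median GC content was 36.7%, against 51.1% for all nuclear protein-coding genes, and its part in this difference was not tested. Uty, a histone demethylase family gene, measured 25.3, 24.4 and 25.5 CPM in WT-Taf and 9.67, 9.16 and 7.69 CPM in WT-Myc (log2 fold change -1.51 ± 0.086, edgeR adjusted p = 5.09e-08). The helicase gene Ddx3y and the translation factor gene Eif2s3y had log2 fold changes of -1.18 and -0.94. Chromosome X genes had a median of -0.09. In the knockout libraries Uty differed by -0.42 and Ddx3y by -0.30, and Eif2s3y went the other way (0.60).

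The knockout libraries allow the same difference between experiments to be read in samples that the wild-type comparison does not use, although it then also holds the effects of the knockouts. The contrast was Myc-KO minus the mean of Taf5l-KO and Taf6l-KO, in which 5.41% of nuclear protein-coding genes were called at least 2-fold higher and 9.09% at least 2-fold lower. Across 12756 protein-coding genes tested in both, the log2 fold changes of the 2 contrasts had a Pearson correlation of 0.692, a description across genes that share annotation, length and base composition. Of 819 genes at least 2-fold higher in WT-Myc, 84.1% had the same sign in the knockouts, 34.6% were called at least 2-fold the same way, and 2.44% were called at least 2-fold the opposite way. Of 822 genes at least 2-fold lower, these shares were 95.3%, 61.2% and 0.487%. Over all 12756 genes they were 75.7%, 11.7% and 1.25%, so the genes higher in WT-Myc lay nearer to the background for sign than the genes lower.

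Individual genes divided in the same way. Tbata, Gas7 and Tmsb10 had knockout differences of -6.07, -3.10 and 2.73, near those of the wild types. Gbx2 had -1.56 in both, and Psat1 -1.38. Cyyr1, Rtkn and Trp73, among the largest rises between the wild types, differed by 0.17, 0.07 and 0.42 between the knockouts. Lif was at 0.05 there. The differences between the 2 contrasts were not tested.

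**Figure D5:**
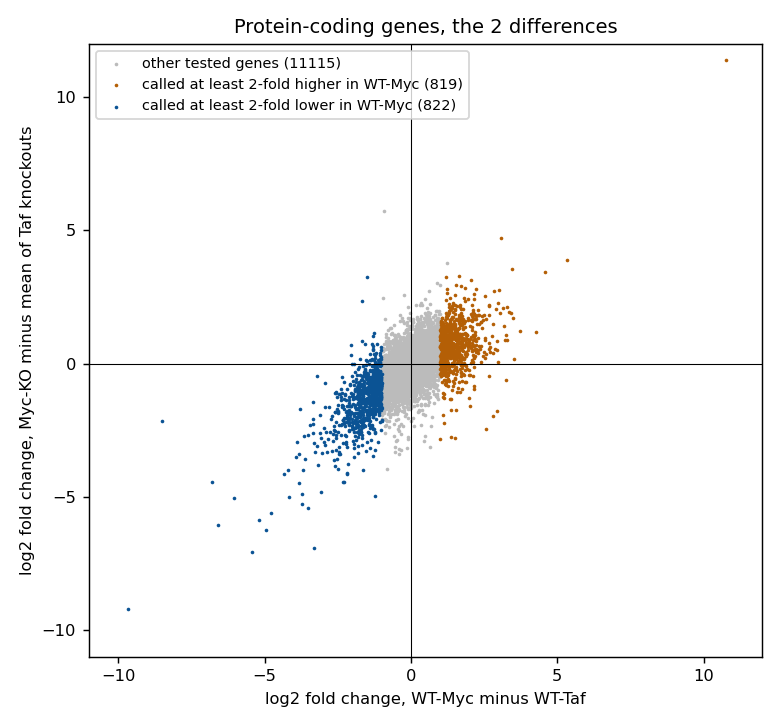
Log2 fold change between experiments in the wild types (x axis, WT-Myc minus WT-Taf) against the same in the knockouts (y axis, Myc-KO minus the mean of the Taf knockouts), 1 point per nuclear protein-coding gene. Points spread around the diagonal with a Pearson correlation of 0.692 across 12756 genes, and genes at least 2-fold higher in WT-Myc include many near 0 on the y axis.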

How the data were processed

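The series measured RNA of wild-type and knockout J1 cells in 15 libraries, and the 6 wild-type libraries were compared. Gene-level estimated counts, in whole numbers, and FPKM values (scaled to transcript length and library size) were deposited by the authors, with Salmon 0.8.2, DESeq2 1.14.1 and the build mm9 named, per the submitters' processing notes. Neither the annotation nor the strand setting of the counting was given in the sources used here. Normalized counts and TPM were not analysed.

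Estimated counts went into edgeR 4.0.16 in R 4.3.3 as deposited (trimmed mean of M-values, filterByExpr, quasi-likelihood test, Benjamini-Hochberg adjustment over all genes tested, threshold 0.05). Of 37310 rows, 32620 (87.4%) matched GENCODE M21, a GRCm38 annotation, by identifier without version, which gave the RNA classes. Histones, gene lists (46 lists, with 1014 of 1076 entries matched) and the comparison itself were chosen with earlier results of these data known. Class shares were compared by an exact two-sided permutation test. Floors and intervals of low counts (3 counts over a group, exact intervals) cover counting error only. Named genes were the 10 largest protein-coding changes each way with a mean of at least 100 counts and no overlap of groups, leaving out clone-like names, the 5 most abundant members of each RNA class, up to 4 members with the smallest p in each list, and a set of factors and RNAs picked by name. Genes named beyond these (among them Rprl2, Ccng1, Tpi1, Dazl and Grb10) were added as examples after their values were seen. DESeq2 1.42.0, limma 3.58.1 on log2(FPKM + 1) and log2(FPKM + 0.1) with an FPKM minimum of 0.5, other scalings, no filter, a 2-fold minimum tested directly, all 15 libraries and leaving out each library were the alternatives. The edgeR script was tested on simulated data. No 2 replicates agreed within counting noise: the chi-square per degree of freedom between wild-type replicates was 2.68 to 9.32.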

Additional observations from a re-analysis of the deposited data

Results flagged for a closer look

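For 10 named genes the wild-type difference and the knockout difference between experiments went opposite ways, with every library of the Myc experiment on one side in the wild types and on the other in the knockouts. The difference between the 2 contrasts was not tested, and the knockouts hold the effects of the edited genes as well. The Nodal inhibitors Lefty1 and Lefty2 had log2 fold changes of 2.00 and 1.75 between the wild types and of -1.29 and -0.93 between the knockouts. The meiosis genes Hormad2 and Stag3 had 1.00 and -1.55 in the wild types against -2.84 and 0.74. Vim had 1.07 against -0.28, and the nucleolar helicase gene Ddx21 had 0.74 against -0.12. The pluripotency factors Klf4 and Tbx3 had -0.046 and -0.46 against 0.90 and 0.41. The wild-type difference of Klf4 was not called, and its sign changed with library totals and without a filter on low counts. The histone H3.3 gene H3f3a had -0.27 against 0.37. The Y-linked Eif2s3y had -0.94 against 0.60. Groups of 3 libraries are too small for the check of single outlying samples.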

How the results depend on the processing

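The RNA classes kept their direction under every alternative run, and for named genes 2293 values under the alternatives kept direction and call, 17 lost the call, 13 gained it and 6 changed direction. Against 10342 genes called, 2818 called at least 2-fold and 1686 of these protein-coding, a direct test of a 2-fold minimum left 1617, 1617 and 846. Without a filter on low counts 4266 genes were called at least 2-fold, and limma on log2(FPKM + 1) called 1021 protein-coding genes at least 2-fold. In the knockouts, 3468 genes were called at least 2-fold, 5243 without the filter and 2114 with the direct test. Over counts outside mitochondrial genes, the log2 ratio of shares was 0.18 for nuclear protein-coding genes (0.25 over all counts), -0.20 for pseudogenes (-0.14), -2.01 for entries absent from M21 (-1.95) and -0.69 for long non-coding RNA (-0.62). Leaving out a library gave 9595 to 10512, 2934 to 3232 and 1761 to 1895 in the wild types and 3594 to 3811 in the knockouts. Gas5 and Snhg3 changed direction with FPKM values (0.69 with either pseudocount, and 0.97 with 1 and 0.98 with 0.1), and Klf4 with library totals (0.084) and without the filter (0.019); the cause was not tested. The count of germline genes at least 2-fold higher was 2 in the main analysis and 0 to 1 in several alternatives, and that of fibroblast genes was 8 with library totals against 4.

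A replicate block gave 10157 genes called, 2828 at least 2-fold and 1686 protein-coding. Same-numbered wild-type libraries did not deviate together (correlations of -0.03, 0.04 and 0.02), so the numbers were not read as pairs.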

Other observations

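Zinc finger genes with names that begin in Zfp were noticed as a group after their values were seen, so they carry no test. Of 327 tested, 76 were called higher and 136 lower in WT-Myc, 7 and 31 of them by at least 2-fold, and the median log2 fold change was -0.17. Their median GC content was 46.9%, against 51.1% for all nuclear protein-coding genes.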
